A study of Mus musculus with 8 samples.

Results

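The genes described here are 9 genes of glycogen metabolism, chosen by symbol among the 55401 genes of a bulk RNA-seq table of mouse tibialis anterior (TA) muscle. They are the phosphorylases Pygm and Pygb, the glycogen synthase Gys1, the branching enzyme Gbe1, the phosphorylase kinase subunits Phka1 and Phkg1, and 3 regulators of protein phosphatase 1 (PP1), which are Ppp1r3a, Ppp1r3c and Ppp1r1a. Each symbol matched 1 row of the table. Whole TA muscles were taken from male mice aged 6 mo in 2 groups. The B6 WT group had 4 samples from wild-type C57BL/6 mice (WT), and the MDX5cv group had 4 samples from mdx5cv mice, a model of Duchenne muscular dystrophy that carries a Dmd mutation on the same B6 background. The labels list no treatment. The samples were numbered 1 to 4 within each group, and the labels do not state that each number is a separate mouse, so the p-values measure the spread between these samples.

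Glycogen is the branched glucose store of muscle. Glycogen synthase lengthens its chains and the branching enzyme adds branch points, while glycogen phosphorylase releases glucose 1-phosphate from the chain ends. Phosphorylase kinase, a complex of alpha, beta, gamma and calmodulin subunits, switches phosphorylase on in response to calcium and hormonal signals. PP1 opposes it: PP1 turns synthase on and phosphorylase off, and glycogen-targeting subunits of the Ppp1r3 family bring PP1 to the glycogen particle. Fast glycolytic fibers, which make up most of the mouse TA, draw strongly on this store during contraction.

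Between 13175524 and 14921057 reads per muscle were assigned to genes, and the 13677 genes whose normalized counts averaged 10 or more were tested, all 9 among them. A normalized count is a read count divided by a size factor for its sample. The 4 skeletal muscle markers Acta1, Ckm, Des and Mb were present in every muscle, and 2 of them, Ckm (log2 fold change −0.75) and Mb (−1.59), were lower in mdx5cv. Their median log2 fold change was −0.45, and their summed normalized counts were 407381 to 452678 in WT and 259770 to 363425 in mdx5cv, without overlap. The part of muscle content in the lower glycogen genes was not tested. Dmd, the mutated gene, had a mean normalized count of 6954 ± 857 (SD, n = 4) in WT and 3964 ± 388 (n = 4) in mdx5cv (log2 fold change −0.81, SE 0.12, limma adjusted p = 0.000177), and a count over the gene does not show the mutation itself. The muscle labelled mdx5cv 4 stood apart from the other mdx5cv muscles. Its median log2 deviation from the WT mean was −1.05 over 6 fast glycolytic fiber markers (−0.51 to −0.38 in the other 3), 6.85 over 6 regenerating fiber markers (4.83 to 5.85) and 3.99 over 7 macrophage markers (2.56 to 2.90). The calls of the lower genes, and some of the fold changes and ratios, are therefore also given without it.

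Promoter sequence is shown for Pygm, the most abundant of these genes, and for Ppp1r3a and Ppp1r3c, which encode targeting subunits of the same family but differed in the size of their change. The sequences are the RefSeq windows of up to 250 bases before the start of each gene (build GRCm38.p6), cut at the first annotated exon and written 5′ to 3′ on the strand of the gene. Capitals mark E-boxes (CANNTG), a general motif that includes the sites of MyoD-type factors, and the A/T-rich MEF2 site, a motif of muscle gene control. Both were searched on both strands, and not every CANNTG is a site of MyoD-type factors. The windows are chr19:6384158-6384398 on the plus strand for Pygm, chr6:14755275-14755524 on the minus strand for Ppp1r3a and chr19:36736654-36736854 on the minus strand for Ppp1r3c.
Pygm: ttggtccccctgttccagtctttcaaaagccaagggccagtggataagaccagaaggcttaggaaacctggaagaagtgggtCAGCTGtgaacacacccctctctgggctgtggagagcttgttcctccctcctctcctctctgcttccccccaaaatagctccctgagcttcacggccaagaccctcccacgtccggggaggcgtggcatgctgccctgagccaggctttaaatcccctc
Ppp1r3a: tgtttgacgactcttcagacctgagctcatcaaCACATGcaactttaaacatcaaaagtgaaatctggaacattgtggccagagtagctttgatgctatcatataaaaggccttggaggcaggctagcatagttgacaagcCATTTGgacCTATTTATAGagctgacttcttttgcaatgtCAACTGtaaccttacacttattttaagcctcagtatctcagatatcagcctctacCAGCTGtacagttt
Ppp1r3c: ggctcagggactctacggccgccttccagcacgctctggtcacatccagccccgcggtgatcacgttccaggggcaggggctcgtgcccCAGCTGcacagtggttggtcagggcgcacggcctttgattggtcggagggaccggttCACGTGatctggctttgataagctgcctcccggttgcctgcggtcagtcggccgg
The Pygm stretch held 1 E-box, Ppp1r3a held 4 E-boxes and 1 MEF2 site (CTATTTATAG), and Ppp1r3c held 2 E-boxes. RefSeq windows were found for 8 of the 9 genes, all but Ppp1r1a. In full windows of 250 bases, 7 of these 8 held at least 1 E-box (none in Pygb, 5 in Phkg1), against 66.2% of 32851 promoters. The MEF2 site was in 1 of the 8, against 2.92% of promoters. The GC box (GGGCGG, either strand) was in 2 of the 8, Gys1 and Phka1, against 32.7%. These matches describe letters in a window and are not evidence of binding.

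The comparison of mdx5cv with WT asks how the glycogen genes of dystrophic muscle differ from those of healthy muscle. Of the 9 genes, 7 were lower in mdx5cv at an adjusted p under 0.05 (Pygm, Gbe1, Phka1, Phkg1, Ppp1r3a, Ppp1r3c and Ppp1r1a), Pygb was higher and Gys1 did not pass. Among all tested genes 20.1% were lower and 20.9% were higher. The median log2 fold change was −0.64 over the 9 genes and 0.0035 over all tested genes. With a log2 fold change of at least 1 in size as well, 2 genes were lower, Ppp1r3c and Ppp1r1a, and none higher, where 3.27% of all tested genes were lower and 10.3% higher. The groups did not overlap for the 7 lower genes, with every mdx5cv muscle below every WT muscle, and 0 of the 9 genes had every mdx5cv muscle above WT. Non-overlap was found for 19.8% of all tested genes in the lower direction and 20.3% in the higher direction. In bulk muscle, fewer cells of a type and less RNA per cell cannot be told apart.

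Fast glycolytic fiber markers moved in the same direction as most of these genes. Of 6 markers 4 were lower (Actn3, Tnnt3, Tnni2 and Tnnc2) and 0 higher. Their median log2 fold change was −0.61, with a summed normalized count of 636956 to 841264 in WT and 460761 to 730554 in mdx5cv. None of them was at 0. The part of fast fiber content was not tested either, and values scaled to these markers are given further on.

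**Figure D1:**
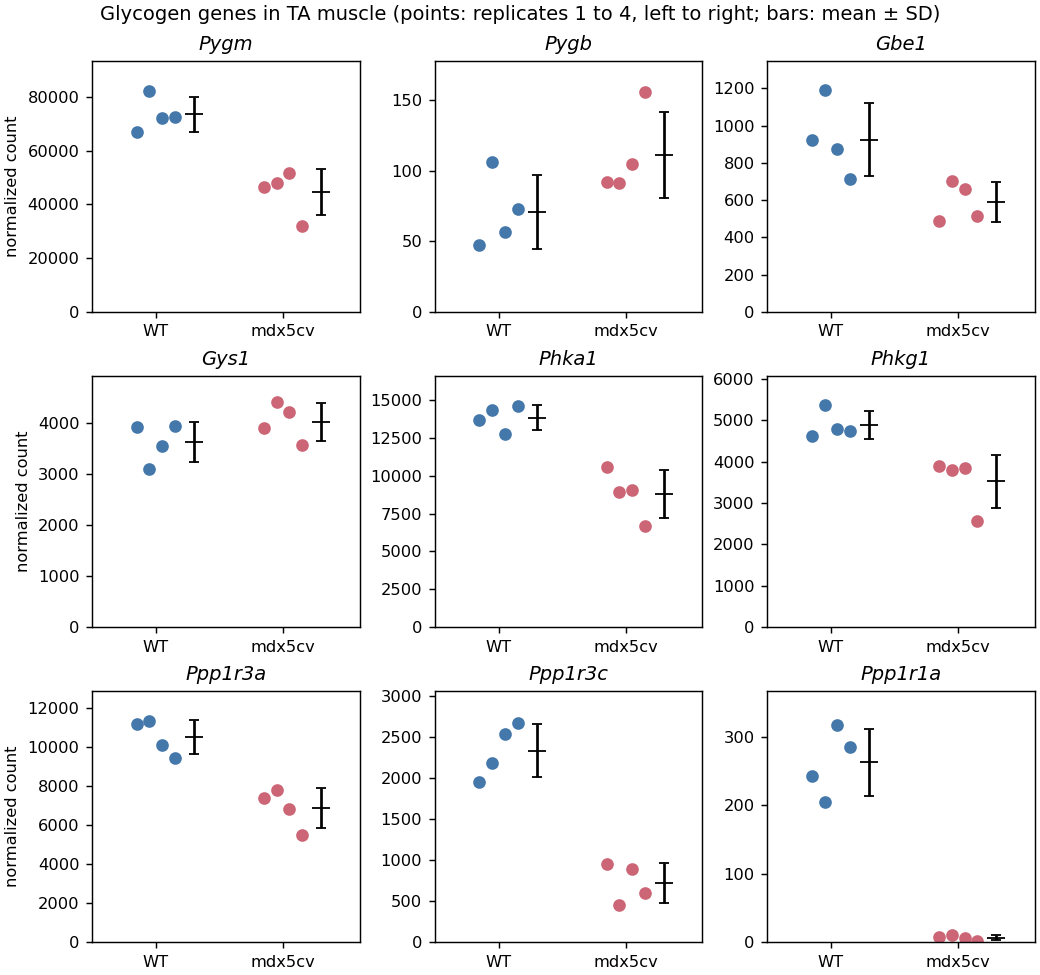
Normalized count (linear axis from 0) of each of the 9 glycogen genes in 4 WT (blue) and 4 mdx5cv (red) TA muscles, with points for replicates 1 to 4 from left to right and bars for the mean ± SD. The groups are apart for 7 genes, overlap for Pygb and Gys1, and are farthest apart for Ppp1r1a, with means of 262 in WT and 6.42 in mdx5cv.

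Pygm encodes the muscle isoform of glycogen phosphorylase (ENSMUSG00000032648.14, chr19:6384399-6398459, plus strand), the enzyme lacking in McArdle disease. The normalized counts of Pygm were 66799, 82387, 72333 and 72744 in WT and 46620, 48097, 51684 and 32034 in mdx5cv. All mdx5cv values lay below all WT values, with mdx5cv 4 the lowest. The mean was 73566 ± 6475 (SD, n = 4) in WT and 44609 ± 8649 (n = 4) in mdx5cv, a log2 fold change of −0.74 (SE 0.19, limma adjusted p = 0.00707). Without mdx5cv 4 the log2 fold change of Pygm was −0.59 (adjusted p = 0.00321).

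Pygb encodes the brain isoform of phosphorylase (ENSMUSG00000033059.7, chr2:150786735-150831758, plus strand), which is also made in fetal tissues. Its normalized counts were 47.0, 106, 56.4 and 73.1 in WT and 91.7, 91.5, 104 and 156 in mdx5cv. WT 2 lay above 3 of the mdx5cv muscles, so the groups overlapped. The mean of Pygb was 70.7 ± 26.1 (SD, n = 4) in WT and 111 ± 30.6 (n = 4) in mdx5cv (log2 fold change 0.67, SE 0.24, limma adjusted p = 0.0409). The call was lost in edgeR (adjusted p = 0.0526) and when any of 5 muscles was left out. Its adjusted p was 0.129 without WT 1, 0.11 without WT 3, 0.0558 without WT 4, 0.0652 without mdx5cv 3 and 0.127 without mdx5cv 4.

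Gys1 encodes the muscle glycogen synthase, which adds glucose from UDP-glucose to the growing chain (ENSMUSG00000003865.16, chr7:45434844-45456619, plus strand). The normalized counts of Gys1 were 3918, 3094, 3546 and 3944 in WT and 3889, 4403, 4204 and 3572 in mdx5cv. The groups overlapped, and mdx5cv 4 was the lowest of its group. The means were 3626 ± 398 (SD, n = 4) and 4017 ± 364 (n = 4), with a log2 fold change of 0.15 (SE 0.11, 95% interval −0.09 to 0.40, limma adjusted p = 0.314). Of the exon bases of Gys1, 6.47% are shared with Ruvbl2 on the opposite strand. The sources do not state whether the counting used the strand, so a few of its reads may belong to Ruvbl2.

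Gbe1 encodes the branching enzyme, whose loss gives glycogen storage disease type IV (ENSMUSG00000022707.16, chr16:70313949-70569716, plus strand). Its normalized counts were 924, 1189, 872 and 714 in WT and 486, 702, 658 and 512 in mdx5cv. The gap between the groups was narrow, since WT 4 was at 714 and mdx5cv 2 at 702. The mean of Gbe1 was 925 ± 198 (SD, n = 4) in WT and 590 ± 106 (n = 4) in mdx5cv, a log2 fold change of −0.64 (SE 0.16, limma adjusted p = 0.00616).

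Both muscle subunits of phosphorylase kinase were lower. Phka1 encodes the muscle isoform of the large regulatory alpha subunit (ENSMUSG00000034055.16, chrX:102513975-102644246, minus strand). Its normalized counts were 13703, 14384, 12766 and 14611 in WT and 10597, 8918, 9040 and 6676 in mdx5cv. Every mdx5cv muscle was below every WT muscle, with means of 13866 ± 829 (SD, n = 4) and 8808 ± 1613 (n = 4) and a log2 fold change of −0.67 (SE 0.14, limma adjusted p = 0.00227).

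Phkg1 encodes the muscle catalytic gamma subunit, which phosphorylates phosphorylase (ENSMUSG00000025537.12, chr5:129863421-129898549, minus strand). The normalized counts of Phkg1 were 4609, 5375, 4791 and 4735 in WT and 3885, 3787, 3854 and 2567 in mdx5cv. Of the mdx5cv muscles 3 lay close together and mdx5cv 4 was well below them. The means were 4878 ± 340 (SD, n = 4) and 3523 ± 639 (n = 4), with a log2 fold change of −0.49 (SE 0.14, limma adjusted p = 0.0122), and without mdx5cv 4 it was −0.34 (adjusted p = 0.0114). Of the exon bases of Phkg1, 9.68% are shared with Sumf2 on the opposite strand.

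The targeting subunits Ppp1r3a and Ppp1r3c were both lower, and Ppp1r3c was the further below WT. Ppp1r3a encodes the striated muscle glycogen-targeting subunit, also called GM or RGL (ENSMUSG00000042717.5, chr6:14713977-14755274, minus strand). Its normalized counts were 11168, 11307, 10076 and 9453 in WT and 7398, 7806, 6798 and 5471 in mdx5cv. The groups were apart, with means of 10501 ± 889 (SD, n = 4) and 6868 ± 1020 (n = 4) and a log2 fold change of −0.62 (SE 0.13, limma adjusted p = 0.00223).

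Ppp1r3c encodes the targeting subunit known as PTG, which binds PP1, glycogen and glycogen synthase (ENSMUSG00000067279.3, chr19:36731731-36736653, minus strand). The normalized counts of Ppp1r3c were 1949, 2176, 2532 and 2664 in WT and 950, 445, 891 and 592 in mdx5cv. The lowest muscle was mdx5cv 2, not mdx5cv 4, and the highest mdx5cv value, 950, lay below all 4 WT values. The means were 2330 ± 327 (SD, n = 4) and 719 ± 241 (n = 4), so the mdx5cv mean was 30.9% of the WT mean (log2 fold change −1.75, SE 0.20, limma adjusted p = 3.07e-05). Over 19 alternative fits the log2 fold change of Ppp1r3c lay between −1.90 and −1.31, with an adjusted p of at most 0.000916.

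Ppp1r1a encodes inhibitor 1, a PP1 inhibitor that becomes active when protein kinase A phosphorylates it (ENSMUSG00000022490.7, chr15:103530279-103538003, minus strand). It was the most changed of the 9 genes. The normalized counts of Ppp1r1a were 242, 205, 317 and 285 in WT and 7.41, 10.4, 6.30 and 1.598 in mdx5cv. In reads these were 211, 187, 287 and 269 in WT against 8, 11, 7 and 2 in mdx5cv, so transcripts were few but were counted in every mdx5cv muscle. The means were 262 ± 49.1 (SD, n = 4) and 6.42 ± 3.65 (n = 4), a 40.8-fold lower mean in mdx5cv. The log2 fold change was −5.31 (SE 0.36, limma adjusted p = 7.29e-07) and −4.87 without mdx5cv 4 (adjusted p = 9.19e-08). On the log2(normalized count + 1) scale the size of a change to so low a level is understated. The log2 fold change of Ppp1r1a ranged from −5.58 to −4.06 over 18 alternatives.

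Adipocyte markers tended lower in mdx5cv, as Ppp1r1a did, but their summed counts overlapped between the groups. Of 4 adipocyte markers (Adipoq, Plin1, Cfd and Lep) 2 were lower and 0 higher, with summed normalized counts of 98.6 to 497 in WT and 29.6 to 103 in mdx5cv. Their median log2 deviation from the WT mean was −1.07, 0.02, −0.56 and 1.53 in WT 1 to 4. In mdx5cv 1 to 4 it was −2.81, −1.27, −1.33 and −0.98. None of the markers was at 0 in a whole group. The part of these cells in the low Ppp1r1a was not tested.

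How far the genes of this set stood below WT depended on the scale. The deposited size factors were 0.873 to 0.944 in WT and 1.06 to 1.25 in mdx5cv. With every muscle scaled to an equal total of reads instead, the median of all tested genes shifted to 0.36 on the log2 scale. Then 4 of the 9 genes were lower (Pygm, Ppp1r3a, Ppp1r3c and Ppp1r1a) and 2 higher (Pygb and Gys1), against 6% lower and 39.8% higher of all tested genes. With each muscle scaled to the mean log2 level of the 6 fast glycolytic fiber markers, that median shifted to 0.44. Then 2 of the 9 were lower and 2 higher, against 2.93% lower and 36.8% higher.

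Ppp1r3c and Ppp1r1a were lower on all 3 scales. Relative to fast fiber markers the log2 fold change was −1.31 for Ppp1r3c (limma adjusted p = 4.21e-05) and −4.94 for Ppp1r1a (2.76e-10). On that scale the values for Pygm (−0.30, adjusted p = 0.0681), Phka1 (−0.23, 0.185), Gbe1 (−0.20, 0.432), Ppp1r3a (−0.18, 0.318) and Phkg1 (−0.04, 0.82) did not pass. Pygb was higher at 1.11 (0.0074) and Gys1 at 0.59 (0.00265). The markers used for that scale are themselves measured in these muscles, and 4 of the 6 were lower in mdx5cv with the deposited factors.

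**Figure D2:**
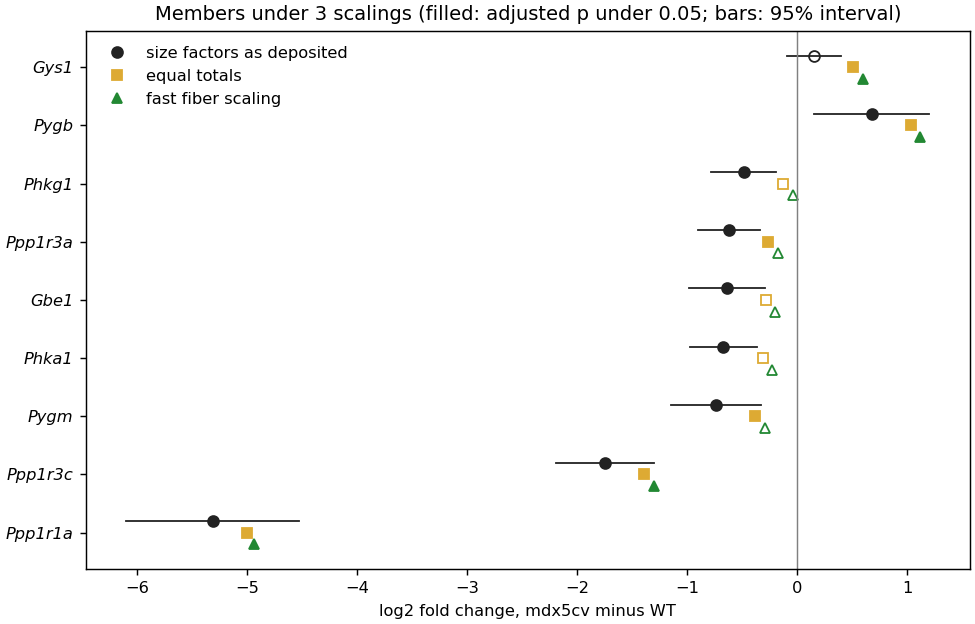
Log2 fold change (mdx5cv minus WT, x axis) of the 9 glycogen genes under the deposited size factors (circles, with 95% intervals), equal totals (squares) and scaling to fast fiber markers (triangles), filled where the adjusted p was under 0.05. Ppp1r3c and Ppp1r1a stay filled and below 0 on every scale, while Gys1 moves from 0.15 to 0.51 and 0.59.

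Ratios between genes within a muscle do not depend on the scaling, apart from the pseudocount of 1. Among 7 ratios of isoforms or partners, 5 were higher and 2 lower in mdx5cv, and for each of the 7 the groups did not overlap. The share of other gene pairs without overlap was not computed. In each of the 5 higher ratios the denominator gene was itself lower in mdx5cv without overlap. The same held for the numerator gene in the 2 lower ratios. The ratios therefore partly restate the results for single genes. Each gave p = 0.0286 in a two-sided exact permutation test, which is the smallest p that 4 against 4 muscles allow, and 0.0286 after Benjamini-Hochberg adjustment over the 7. The ratios were chosen with results for some of these genes already known, so the p-values are not independent of that choice.

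The non-muscle isoforms rose relative to the muscle isoforms. The log2 ratio of Pygb to Pygm was −10.07 ± 0.39 (SD, n = 4) in WT and −8.65 ± 0.65 (n = 4) in mdx5cv, a 2.67-fold difference. Per kilobase of exon, Pygb was at 0.0471%, 0.0864%, 0.0522% and 0.0672% of Pygm in WT and at 0.132%, 0.127%, 0.135% and 0.326% in mdx5cv. Pygm thus remained the dominant phosphorylase transcript in all 8 muscles. The ratio of Pygl, the liver isoform, to Pygm differed by 1.51 on the log2 scale, and mdx5cv 4 had the highest value of both ratios. Without mdx5cv 4 the differences were 1.09 for Pygb and 1.22 for Pygl.

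The phosphorylase kinase isoforms showed the same direction. Per kilobase, Phka2, the liver alpha subunit, was at 1.11% ± 0.13 (SD, n = 4) of Phka1 in WT and 3.25% ± 1.32 (n = 4) in mdx5cv, with a log2 difference of 1.47, and 1.22 without mdx5cv 4. Phkg2, the liver and testis gamma subunit, was at 2.28% ± 0.29 of Phkg1 in WT and 4.19% ± 1.49 in mdx5cv, a log2 difference of 0.83. Phkg2 itself had 67.8 ± 4.79 normalized counts in WT and 86.3 ± 10.9 in mdx5cv and did not pass its own test (limma adjusted p = 0.0829).

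Glycogen synthase stood higher against phosphorylase in mdx5cv. Per kilobase, Gys1 was at 3.94%, 2.52%, 3.29% and 3.64% of Pygm in WT and at 5.61%, 6.15%, 5.47% and 7.49% in mdx5cv. The 2 groups were apart, and the log2 ratio of Gys1 to Pygm differed by 0.89 (1.85-fold). Without mdx5cv 4 the difference was 0.79.

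The ratio of the targeting subunits shifted away from Ppp1r3c. Per kilobase, Ppp1r3c was at 44.6%, 49.2%, 64.2% and 72.0% of Ppp1r3a in WT and at 32.8%, 14.6%, 33.5% and 27.7% in mdx5cv. The log2 ratio of Ppp1r3c to Ppp1r3a differed by −1.13, and by −1.16 without mdx5cv 4. Inhibitor 1 also fell against the PP1 catalytic subunit Ppp1ca, with a log2 difference of −5.22. Ppp1ca itself had 1255 ± 252 normalized counts in WT and 1158 ± 37.3 in mdx5cv (limma adjusted p = 0.567).

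**Figure D3:**
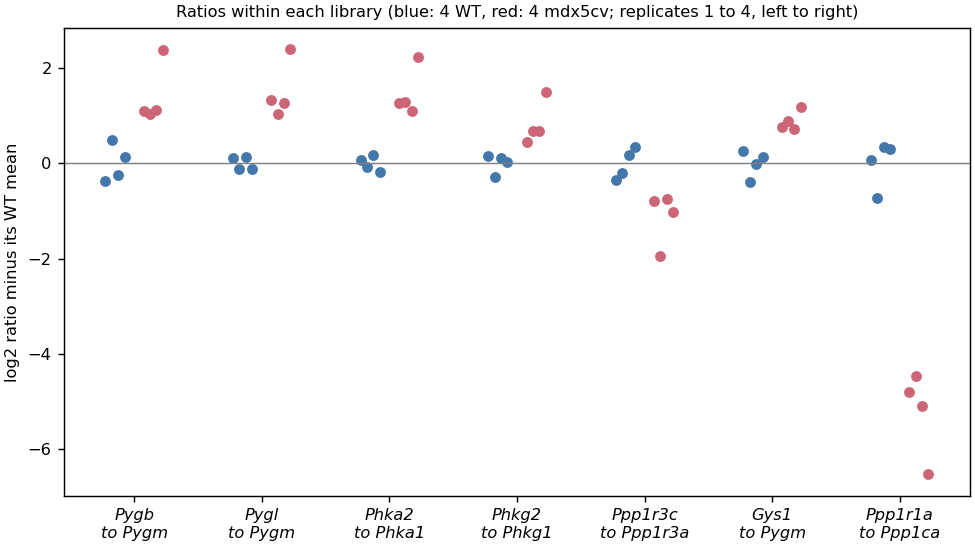
Log2 ratio between pairs of genes in each muscle minus the WT mean of that ratio (y axis), for 4 WT (blue) and 4 mdx5cv (red) muscles, with replicates 1 to 4 from left to right. The 2 groups are apart for all 7 ratios, and mdx5cv 4 is the highest red point for the 5 ratios that were higher.

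Levels were compared between genes per kilobase of exon, with the exons of all annotated transcripts of a gene merged. The transcripts made in this muscle may be shorter, so the order is approximate. In WT the order was Pygm (22861 ± 2012 normalized counts per kilobase, SD, n = 4), Phka1 (2215 ± 132), Ppp1r3a (1508 ± 128), Ppp1r3c (855 ± 120), Gys1 (757 ± 83.1), Phkg1 (749 ± 52.2), Ppp1r1a (201 ± 37.6), Gbe1 (173 ± 36.9) and Pygb (14.7 ± 5.43). Ppp1r3c, Gys1 and Phkg1 did not differ beyond their SDs, and neither did Ppp1r1a and Gbe1. In mdx5cv the order began with the same 3 genes, Pygm (13862 ± 2688), Phka1 (1407 ± 258) and Ppp1r3a (986 ± 146). Gys1 (839 ± 76.1) and Phkg1 (541 ± 98.2) came next, and Ppp1r3c (264 ± 88.3) lay below both. Gbe1 (110 ± 19.9) and Pygb (23.1 ± 6.36) followed, and Ppp1r1a (4.92 ± 2.79) was the lowest. The means ± SD of Ppp1r3a and Gys1 overlapped in mdx5cv.

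Another 40 genes of glycogen metabolism and PP1 were listed by role, and 36 of them were tested. In mdx5cv 15 were lower, 5 higher and 16 not called, where all tested genes gave the 20.1% and 20.9% stated above. The median log2 fold change of the 36 genes was −0.23. Lower genes were found at most steps, and the genes that rose were isoforms or subunits of low level in this muscle, except Prkar1a. With equal totals the counts were 6 lower and 9 higher, against 6% lower and 39.8% higher of all tested genes. With the fast fiber scale they were 2 lower and 10 higher, against 2.93% lower and 36.8% higher.

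Of the other enzymes 3 of 7 were lower and 2 higher. Lower were Ugp2, which makes UDP-glucose (log2 fold change −0.70), Gyg, the glycogenin primer (−0.53), and Pgm1, a phosphoglucomutase (−0.62). Pygl (0.77) and Pgm2 (0.74) were higher, at means under 50 normalized counts in either group. The lysosomal glucosidase Gaa (−0.15, limma adjusted p = 0.573) did not pass. The call of Pgm2 was lost without WT 1 (adjusted p = 0.0673), WT 3 (0.083), mdx5cv 1 (0.059) or mdx5cv 4 (0.0851).

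Of 6 further phosphorylase kinase subunits 2 were lower and 1 higher. Calm3, a calmodulin gene, was lower (−0.77), whereas Calm2 (−0.24, limma adjusted p = 0.0708) and the beta subunit Phkb (−0.31, 0.0533) did not pass. Phka2 was higher (0.80), with 146 to 156 normalized counts in 3 WT muscles, 139 in WT 4 and 209 to 338 in mdx5cv.

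The remaining targeting subunits gave 0 lower and 1 higher of 4 tested. Ppp1r3d, a broadly expressed subunit, had 2.29, 20.8, 19.9 and 24.4 normalized counts in WT and 25.0, 35.8, 44.1 and 43.2 in mdx5cv. The groups nearly met, and WT 1 was far below the rest. The log2 fold change of Ppp1r3d was 1.41 (SE 0.53, limma adjusted p = 0.0476), or 0.72 without WT 1 (0.0462). The call was lost in 7 of 18 alternatives, among them those without WT 3 (0.0502), mdx5cv 1 (0.0516), mdx5cv 2 (0.0744), mdx5cv 3 (0.0975) and mdx5cv 4 (0.104). Ppp1r3b, the liver subunit, was at 0.74 (0.0823).

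Among PP1 catalytic subunits and inhibitors 2 of 4 were lower, Ppp1cc (−0.68) and inhibitor 2, Ppp1r2 (−0.55). Of the 3 genes of glycogen quality control, Epm2a (−0.72) and Nhlrc1 (−0.64), which encode the Lafora disease proteins laforin and malin, were lower, and Stbd1 (0.06, limma adjusted p = 0.851) was not called. Of 12 upstream kinase and receptor genes 6 were lower. They were Gsk3a (−0.53), the protein kinase A subunits Prkaca (−0.32), Prkacb (−0.31) and Prkar2a (−0.83), and the AMP-activated kinase subunits Prkaa2 (−0.53) and Prkab2 (−0.76). Prkar1a, a regulatory subunit of protein kinase A, was higher (0.48). The signs of Prkaca and Prkacb turned with equal totals and with the fast fiber scale, where neither passed. The call of Prkaca, whose groups overlapped, was lost in a further 7 of 19 alternatives, with a limma adjusted p up to 0.0939 (without WT 3). That of Prkacb was lost in a further 2, without WT 3 (0.054) and without mdx5cv 2 (0.0755).

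Of the 4 genes under the count filter, Gys2, the liver synthase, had 6, 6, 7 and 7 reads in WT and 1, 1, 0 and 1 in mdx5cv. Ppp1r1b and Ppp1r1c had at most 3 reads in any muscle. Ppp1r3g had 0 reads in all 8, which allows up to 3 reads per library.

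**Figure D4:**
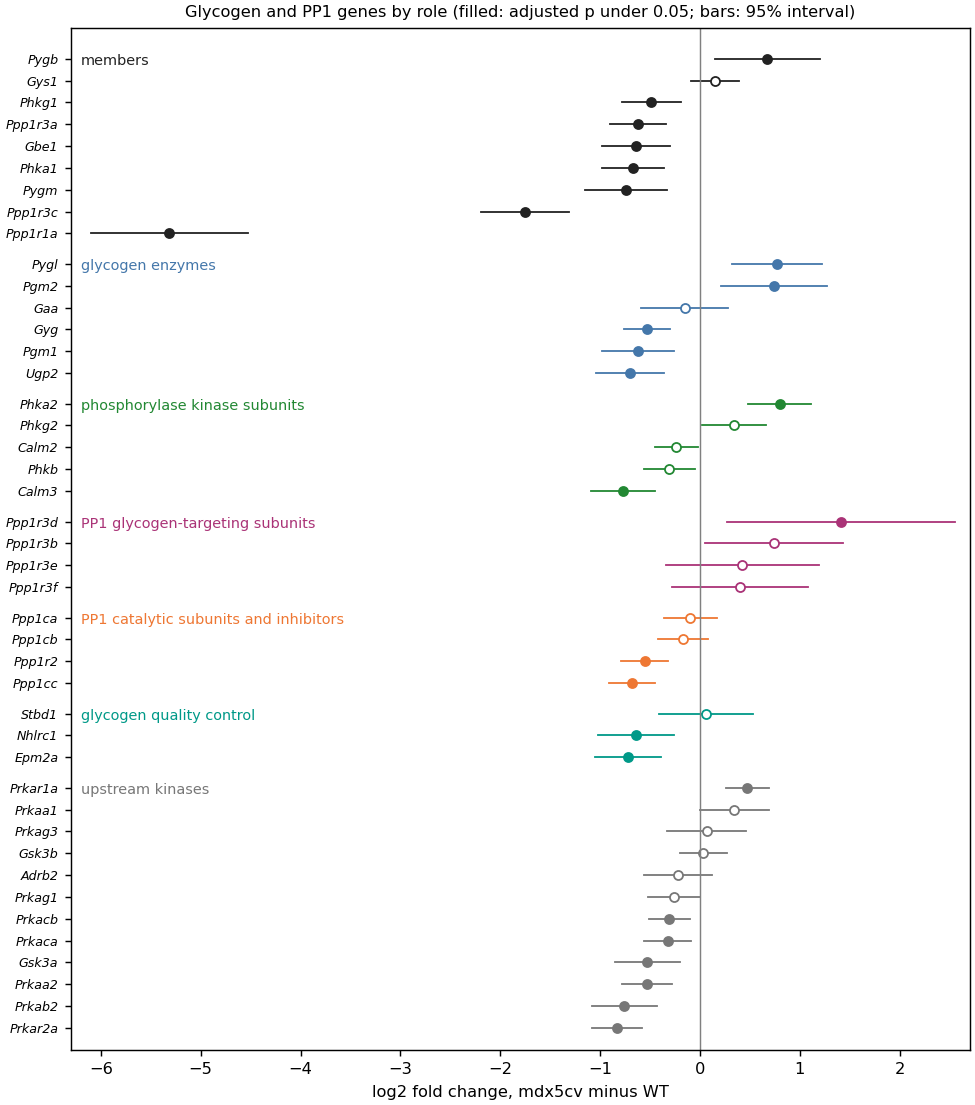
Log2 fold change (mdx5cv minus WT, x axis) with 95% intervals for the 9 glycogen genes and further tested genes by role, filled where the adjusted p was under 0.05. Most points lie between −1 and 1, Ppp1r1a and Ppp1r3c lie farthest to the left and Ppp1r3d, with the widest interval to the right of 0, is at 1.41.

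Markers of several other cell types were higher in mdx5cv, as were Pygb, Pygl and Phka2. Regenerating fiber markers were higher for 6 of 6, with summed normalized counts of 118 to 143 in WT and 2175 to 8502 in mdx5cv, and Mymx was at 0 in all WT muscles. Macrophage markers were higher for 7 of 7 (551 to 835 in WT, 4131 to 9954 in mdx5cv) and fibroblast markers for 4 of 5 (5196 to 7870 in WT, 17446 to 31390 in mdx5cv). Slow fiber markers were higher for 4 of 7 and lower for 1 (747 to 834 in WT, 1202 to 2597 in mdx5cv). Endothelial markers were lower for 4 of 4 (2394 to 2882 in WT, 1438 to 1878 in mdx5cv) and erythrocyte markers for 2 of 4 (664 to 1191 and 333 to 702). The part of these cells in the isoform ratios was not tested.

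The genes most like Pygm, Ppp1r3c and Ppp1r1a over the 8 muscles were found among 7641 genes with a mean of at least 100 normalized counts, by the root mean square difference of their log2 deviations from the WT mean. For Pygm these were Abhd16a (0.05), Slc25a28 (0.06) and Prkab2 (0.07), the last a subunit of AMP-activated kinase. For Ppp1r3c they were Slc38a4 (0.23), an amino acid transporter, Rxrg (0.31), a retinoid X receptor, and Otub2 (0.31), a deubiquitinase. For Ppp1r1a they were Ces1d (0.82), a carboxylesterase, Dusp26 (1.01), a phosphatase, and Actr3b (1.62). The mean of Ces1d was 532 ± 187 normalized counts (SD, n = 4) in WT and 12.6 ± 5.94 (n = 4) in mdx5cv. Likeness over 8 muscles is a description, and the distances for Ppp1r1a are large beside those for Pygm.

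Among the mdx5cv muscles, mdx5cv 4 had the lowest value for 6 of the 9 genes and for 5 of the 7 lower genes. Without it the same 7 genes were lower and Pygb did not pass. Leaving out any other muscle also left all 7 genes called lower.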

How the data were processed

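RNA from 4 WT and 4 mdx5cv TA muscles was isolated with Trizol and made into reverse-stranded total RNA libraries. The values deposited by the authors are a signal on a linear scale, the reads of a gene over the size factor of its library, with no filter on genes. The submitters' processing notes list FastQC, Trim Galore 0.6.4, STAR 2.6.0c, SAMtools 1.9, featureCounts, MultiQC 1.6, DESeq2 1.26.0, R 3.6.2 and the mm10 build. The annotation release and strand setting of the counting are not given in the sources used here.

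Whole reads were recovered from 100% of values (tolerance 0.01), between 13175524 and 14921057 per muscle, so genes with few reads carry large counting error. Chi-square per degree of freedom between replicates was 9.56 to 43.2, and no library was counted as a copy. Groups were taken from the labels.

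The mdx5cv and WT muscles were set against each other in limma 3.58.1 under R 4.3.3 (lmFit, eBayes with a variance trend, two-sided, no covariate) on log2(normalized count + 1), for genes with a mean of at least 10, with Benjamini-Hochberg adjustment over all 13677 genes. Fold changes are on that scale. The recovered reads were also tested with edgeR 4.0.16 (quasi-likelihood test, 5550 genes called at an adjusted p under 0.05, against 5597 with limma) and DESeq2 1.42.0 (5556). Ratios were compared by a two-sided exact permutation test. Simulated data for this comparison (13548 genes) had 200 changed genes and the same spread setting for every gene. There limma recovered 95% of the genes given a log2 change of 1 and 100% of those given 2, and called 13 unchanged genes. Most of the glycogen genes described here changed by less, so these rates do not carry over to them. The alternatives tried were pseudocounts of 0.1 and 10, TMM factors, no filter, a minimum of 10 in all samples, scaling to equal totals or to fast fiber markers, no variance trend, a replicate block, and each replicate left out. Python 3.11.15 was used for the other steps.

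Coordinates and exon lengths are those of GENCODE M21 (GRCm38), matched by gene ID for 55141 of the 55401 genes with versions ignored. The exon length of a gene is that of the merged exons of all its annotated transcripts, also in the percentages per kilobase. Promoters are from RefSeq. The members, the lists, the tests and the alternatives were chosen with earlier results of these data known. The genes named are the 9 members, listed glycogen and PP1 genes past an adjusted p of 0.05 and a log2 fold change of at least 1 in size, Dmd, the genes of the ratios, and the 3 genes nearest to Pygm, Ppp1r3c and Ppp1r1a each. Other listed genes and markers were named after their values were seen. Some listed genes and markers are counted but not reported here by name, and are left out of the plot by role, and 1 marker list is not reported here.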

Additional observations from a re-analysis of the deposited data

Results flagged for a closer look

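Dixon's criterion for a sample far from the other 3 of its group was applied to 34 sets of 4 values (the 9 genes and the ratios named in the text, with Ppp1r3d, in each group), and 4 sets met it, where chance gives about 1.7. The log2 value of Phkg1 in mdx5cv 4 was 11.33, with the rest of its group at 11.89 to 11.92. The log2 value of Ppp1r3d in WT 1 was 1.72, against 4.39 to 4.66 in the other WT muscles. The log2 ratio of Pygb to Pygm in mdx5cv 4 was −7.67, while the rest of its group lay at −9.02 to −8.94. The log2 ratio of Phka2 to Phka1 in mdx5cv 4 was −4.30, against −5.43 to −5.24. No cause was tested for these values.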

How the results depend on the processing

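Of the 9 genes, 7 remained lower under the pseudocounts, no filter, TMM factors, no variance trend, the replicate block, edgeR and DESeq2, and when any muscle was left out. With at least 10 in every sample Ppp1r1a was not tested and 6 were lower. The counts were 4 lower and 2 higher with equal totals and 2 lower and 2 higher with the fast fiber scale. All tested genes gave 6% lower and 39.8% higher with equal totals, and 2.93% and 36.8% with the fast fiber scale. The count of higher genes fell to 0 without the variance trend and in edgeR, and was between 0 and 1 when a muscle was left out. Of the other 36 genes, 6 were lower and 9 higher with equal totals and 2 lower and 10 higher with the fast fiber scale, and 3 to 5 were higher when a muscle was left out. Prkaca turned to 0.0331 with equal totals and 0.1172 with the fast fiber scale, and Prkacb to 0.0515 and 0.1357 (log2). The direction of these shifts follows from the change of scale, and the cause of the other changes was not tested. The 7 ratios, such as the ratio of Pygb to Pygm, kept their direction when a muscle was left out, as values with no test. With the replicate number as a block, an exact permutation test over sign flips of the 4 paired differences gave p = 0.125 for each ratio, the smallest p that 4 pairs allow.

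The deviations of samples with the same replicate number correlated weakly (0.05, 0.03, 0.07 and 0.15). Pairs with different numbers gave −0.15 to 0.07. The highest value was that of WT 4 with mdx5cv 4, while mdx5cv 2 correlated better with WT 1 (0.07) than with WT 2 (0.03). What samples of the same number share was not tested. With the replicate block 5616 genes were called in place of 5597, with 7 of the 9 genes lower and 1 higher, and 15 of the other genes lower and 5 higher. Pygb, Pygl, Pgm2, Ppp1r3d and Ppp1r1a in mdx5cv rest on few reads, and the depth limits the precision of their values.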
